A study of Homo sapiens with 24 samples.

Results

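The experiment described here is the overexpression of NDUFS6 in SK-N-BE(2), a human neuroblastoma cell line with an amplified MYCN gene. Its members were chosen by column of the deposited expression table: 3 libraries of cells that received a lentivirus with the full-length NDUFS6 coding sequence and 3 libraries of cells that received the corresponding empty vector, 6 of the 24 libraries of the series. The genes tested were those with at least 1 FPKM (fragments per unit of transcript length and of sequencing depth) in at least 3 of these 6 libraries, 12967 of 60564. Both groups had been exposed to lentiviral particles with 5 µg/mL polybrene for 16 hours and selected with 2 µg/mL puromycin from 48 hours after infection, so the controls carried a vector and had met the drug as well. The other libraries used below were SK-N-BE(2) with a short hairpin RNA (shRNA) against NDUFS6 or with the shRNA empty vector, and the same 4 arms in SH-SY5Y, a neuroblastoma line without MYCN amplification, each with 3 libraries. No promoter of the construct and no clone or pool is named in the labels, all libraries are labelled as 1 batch, and the 3 libraries of a group are called biological replicates. The labels do not say that they stem from 3 infections, and the p-values reflect variation among libraries that could be technical.

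NDUFS6 encodes a small accessory subunit of complex I, the enzyme that takes electrons from NADH into the mitochondrial respiratory chain while pumping protons, and it is needed for a late step in the assembly of that complex. Cells that rely less on respiration draw more on glycolysis, and many glycolytic genes are targets of the hypoxia-inducible factors, transcription factors that are destroyed when oxygen is plentiful. In neuroblastoma, MYCN drives ribosome production and metabolism, and a set of adrenergic transcription factors (HAND2, GATA3 and others) holds the identity of the sympathetic lineage.

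NDUFS6 itself (chromosome 5, 1801400 to 1816605 of hg38, plus strand, 4 exons in its longest annotated transcript) rose only slightly in the SK-N-BE(2) overexpression libraries. It stood at 14.9, 17.8 and 19 FPKM in overexpression libraries 1, 2 and 3 and at 11.8, 13.9 and 12.7 FPKM in empty vector libraries 1, 2 and 3. The 2 groups did not overlap, but the lowest overexpression library lay only just above the highest control. The means were 17.2 ± 2.07 and 12.8 ± 1.03 FPKM (SD, n = 3 each), 1.34-fold apart, with a log2 change of 0.39 (SE 0.117, adjusted p = 0.0136; log2 changes here are differences of log2(FPKM + 1)). Against the shRNA empty vector libraries of the same line (11.2 ± 1.63 FPKM) the change was 0.59 (adjusted p = 0.000422). The call was lost without overexpression library 2 (0.37, adjusted p = 0.0573), without overexpression library 3 (0.33, adjusted p = 0.0702) and without empty vector library 1 (0.34, adjusted p = 0.0616). In SH-SY5Y the same kind of construct went with 208 ± 7.74 against 11 ± 0.679 FPKM, a log2 change of 4.13, and the difference between the lines was -3.73 (adjusted p = 6.59e-12). FPKM counts reads over the annotated gene, so transcripts of the construct and of the cell's own gene cannot be told apart. The processed pseudogene NDUFS6P1 did not exceed 0.0182 FPKM in any of the 24 libraries.

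**Figure D1:**
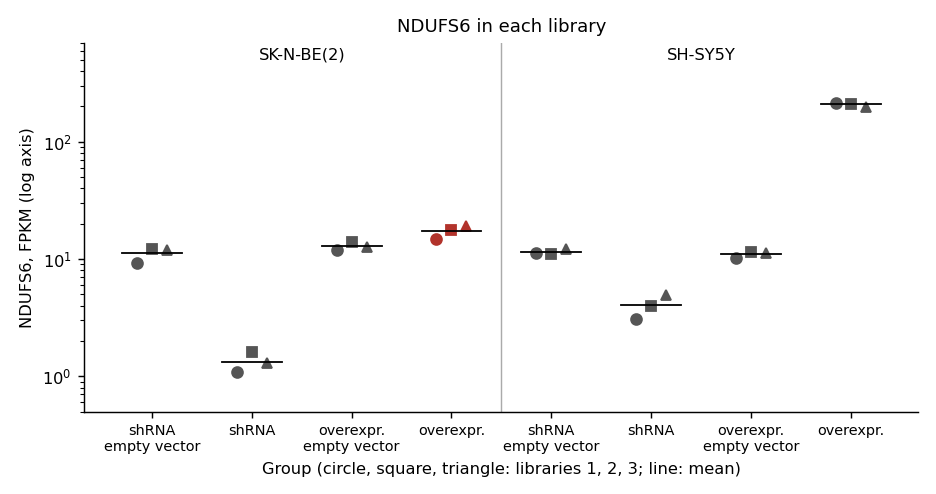
NDUFS6 in FPKM on a log axis for the 24 libraries in their 8 groups, with a line at each group mean and the SK-N-BE(2) overexpression libraries in red. These 3 libraries sit at 14.9 to 19 FPKM, just above the 3 libraries of their own empty vector, while the SH-SY5Y overexpression libraries have a mean of 208 FPKM.

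The 3 overexpression libraries were not alike. With genes split into 5 equal bins by annotated exon length, the shortest bin stood above the longest by 0.52 and 0.30 in libraries 2 and 3 (medians on the log2 scale, relative to the control mean), against 0.03 in library 1 and -0.08 to 0.11 in the controls. In the shortest bin 26.6% of genes were called higher and 4.24% lower, and in the longest 6.18% and 42.9%. The first principal component of the 6 libraries held 60.7% of the variance, with library 1 (-1.0) between library 2 (27.0), library 3 (15.6) and the controls (-18.6 to -7.0). Counts with library 1 alone are given below for several gene lists. MYCN, amplified in this line, stood at 898 to 1282 FPKM across the 6 libraries. Most markers of immune, epithelial, endothelial and Schwann cells were low or absent. None of 13 immune and 1 of 10 epithelial markers reached 1 FPKM in any of the 6 libraries. Among endothelial markers 2 of 9 did, and among Schwann cell markers 3 of 12. Fibroblast and stroma markers were not low as a group, and 9 of 13 reached 1 FPKM.

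Against their own empty vector, 4564 of 12966 genes (35.2%, NDUFS6 left out) passed an adjusted p under 0.05, of which 1925 rose (14.8%) and 2639 fell (20.4%). Most changes were small: the median size of a called change was 0.29 on the log2 scale, and 4020 of the calls (88.1%) were under 0.5. By at least 2-fold on the log2(FPKM + 1) scale (a change of at least 1), 28 genes (0.216%) rose and 17 (0.131%) fell. All counts of changes of at least 2-fold use that rule, which misses some low genes whose FPKM doubled. With a pseudocount of 0.1 in place of 1 these counts were 98 and 94. Folds given for single genes are ratios of mean FPKM. The share of calls that were rises, 42.2%, depended on the scaling, and was 30.7% with values scaled to a fixed sum, 26.2% with that sum taken without mitochondrially encoded genes and 52.4% with median-of-ratios scaling. Without overexpression library 2 the calls fell to 1189 and 1501, and without empty vector library 3 the falls numbered 1734. Without overexpression library 1 there were 58 falls of at least 2-fold, and without empty vector library 2 there were 35. The same overexpression libraries set against the shRNA empty vector gave 3048 rises (23.5%) and 2925 falls (22.6%), 46.1% together. The 2 empty vector controls differed from each other at 5080 genes (39.2%), with 2874 (22.2%) higher and 2206 (17%) lower in the overexpression empty vector. Of all genes, 929 (7.16%) rose and 1312 (10.1%) fell against both controls. These comparisons share the overexpression libraries, so they are not independent, and the counts of the lists described below are given against both. Without overexpression library 1 the 2 counts were 1527 and 2052, and without library 2 they were 532 and 611.

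The hypoxia response list rose to the same extent in the 3 overexpression libraries. Of its 24 members 23 were tested (ANKRD37 did not pass the filter), and 15 rose while 0 fell, against 14.8% of all genes that rose. There were again 15 rises without overexpression library 2, without library 3 and with library 1 alone (a lone library is assumed to vary like the other groups). The list median was 0.37, with medians of 0.38, 0.37 and 0.39 in overexpression libraries 1, 2 and 3, against -0.02 over all genes tested. In none of the 15 did overexpression and control libraries overlap, against 11.8% of all genes that were called higher without overlap. Against the shRNA empty vector 16 members rose and 0 fell, 14 of them among the 15. Promoter sequences were at hand for 12 of the 15, and 4 are shown, of genes with log2 changes from 0.42 (PGK1) to 1.01 (CA9), because they differ in how many core hypoxia-response motifs they hold.

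The 250 bases before the annotated start of each gene (RefSeq, GRCh38.p14) are written 5′ to 3′ on the gene's strand, with every ACGTG or GCGTG, on either strand, in capitals (on the opposite strand these read CACGT and CACGC, and CACGTG holds 2 overlapping matches). They are CA9 at chr9:35673678-35673927 (plus), P4HA1 at chr10:73096867-73097116 (minus), PGK1 at chrX:78103998-78104247 (plus) and BNIP3 at chr10:131981924-131982173 (minus).
CA9: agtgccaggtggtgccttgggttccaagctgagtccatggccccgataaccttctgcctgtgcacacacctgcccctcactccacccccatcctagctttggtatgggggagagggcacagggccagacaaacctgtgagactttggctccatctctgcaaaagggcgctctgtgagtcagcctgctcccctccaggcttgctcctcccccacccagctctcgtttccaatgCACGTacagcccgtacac
P4HA1: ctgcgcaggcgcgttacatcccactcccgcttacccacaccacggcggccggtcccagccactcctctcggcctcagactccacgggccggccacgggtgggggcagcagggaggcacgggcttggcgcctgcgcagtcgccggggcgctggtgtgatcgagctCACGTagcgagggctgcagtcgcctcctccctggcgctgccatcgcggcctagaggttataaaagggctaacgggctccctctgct
PGK1: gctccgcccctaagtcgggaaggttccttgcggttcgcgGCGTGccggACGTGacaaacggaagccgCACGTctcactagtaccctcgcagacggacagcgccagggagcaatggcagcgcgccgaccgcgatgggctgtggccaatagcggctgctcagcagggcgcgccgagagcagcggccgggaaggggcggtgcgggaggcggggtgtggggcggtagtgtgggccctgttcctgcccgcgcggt
BNIP3: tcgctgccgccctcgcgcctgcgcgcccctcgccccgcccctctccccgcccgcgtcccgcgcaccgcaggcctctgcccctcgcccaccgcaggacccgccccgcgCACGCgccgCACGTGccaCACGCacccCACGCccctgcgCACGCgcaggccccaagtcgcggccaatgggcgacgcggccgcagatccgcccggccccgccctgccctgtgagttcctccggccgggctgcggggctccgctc
The CA9 window holds 1 match, starting 18 bases before the gene start, the P4HA1 window 1, the PGK1 window 3 and the BNIP3 window 6. Some genes have more than 1 window in the table. The members that rose had 15 windows, 12 of them with a match, the members that did not pass had 12, 10 of them with a match, and of all 35116 windows 43.2% had one. A match is a description of the letters, not a bound site.

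NDRG1, a stress-response gene induced by low oxygen and repressed by MYCN, had the largest change of the list, with 6.17, 7.34 and 6.53 FPKM against 2.16, 1.65 and 1.31. Every overexpression library was above every control, 3.91-fold on average (log2 change 1.51, SE 0.0864, adjusted p = 2.32e-10). CA9, a carbonic anhydrase of the cell surface that handles acid from glycolysis, stood at 2.21, 2.80 and 2.56 FPKM against 0.842, 0.846 and 0.579 (log2 change 1.01, adjusted p = 9.79e-07). P4HA1, a prolyl hydroxylase for collagen, stood at 24.6, 28.7 and 27.5 FPKM against 16.5, 15.6 and 14, a change of 0.77 (adjusted p = 5.96e-08). The groups were well apart for these 3 genes, and the shRNA empty vector means were 2.27, 0.576 and 22.6 FPKM, so that NDRG1 and CA9 rose about as far against that control (1.23 and 1.17) while P4HA1 rose by 0.24. BNIP3, a receptor for the removal of mitochondria, stood at 24, 25.6 and 23 FPKM against 15.8, 16.4 and 14.7 (0.60, adjusted p = 2.44e-08), and its relative BNIP3L rose by 0.36. PDK1, the kinase that holds pyruvate back from the mitochondrion, stood at 5.03, 4.72 and 4.59 FPKM against 3.39, 2.70 and 2.67 (0.56, adjusted p = 4.34e-06). STC2, a secreted glycoprotein, stood at 8.34, 6.71 and 7.01 FPKM against 4.25, 3.82 and 3.90 (0.74, adjusted p = 3.67e-07). Overexpression library 1 was the highest of the 3 for PDK1 and STC2 and the middle one for BNIP3. VEGFA, the main growth factor for blood vessels, rose by 0.32 and P4HA2, a relative of P4HA1, by 0.39. The 8 members that did not pass were EGLN3, EGLN1, ADM, KDM3A, ERO1A, MXI1, DDIT4 and LDHA, with log2 changes from -0.08 to 0.17.

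Most genes of glycolysis and glucose uptake rose as well. Of 23 members 22 were tested, and 19 rose and 1 fell (median 0.30), with 14 rising against both controls. The medians were 0.25, 0.43 and 0.34 in overexpression libraries 1, 2 and 3, and with library 1 alone 12 members rose and 1 fell. The count against the shRNA empty vector was 16 rises and 0 falls. The list shares members with the hypoxia list, among them SLC2A1, HK2, ALDOC, PFKFB3, PFKFB4 and PGK1. At the entry of the pathway, SLC2A1, the main glucose carrier, stood at 14.8, 14.8 and 15.4 FPKM against 10.5, 10.2 and 9.48, and no control reached an overexpression library (log2 change 0.54, adjusted p = 1.28e-07, and 0.71 against the shRNA empty vector). HK2, a hexokinase, rose by 0.37, and GPI, the next enzyme, stood at 19.4, 21.9 and 21.2 FPKM against 13, 12.2 and 11.6 (0.72, adjusted p = 4.77e-10). The shRNA empty vector mean of GPI was 20.4 FPKM, level with the overexpression libraries (0.03, adjusted p = 0.593). PFKFB4, which makes the activator of phosphofructokinase, stood at 2.92, 3.28 and 2.90 FPKM against 1.42, 1.36 and 1.31 (0.77, adjusted p = 4.84e-06). ALDOC, an aldolase, stood at 12.2, 14.7 and 12 FPKM against 6.51, 7.02 and 5.82 (0.90, adjusted p = 1.49e-07). The ratio of mean FPKM was 2.22 for PFKFB4 and 2.01 for ALDOC. PGK1 stood at 64.2, 74.1 and 70.6 FPKM against 53, 52.6 and 49.4 (0.42, adjusted p = 3.13e-06), but at 64.4 FPKM in the shRNA empty vector libraries (0.11, adjusted p = 0.0676). The enolases ENO1 and ENO2 rose by 0.40 and 0.36. The member that fell was SLC16A1, a lactate carrier, by 0.14, from 71.6, 72.1 and 70.7 to 63.5, 65.3 and 65.3 FPKM, although it was higher than in the shRNA empty vector libraries (50.5 FPKM on average, 0.35).

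**Figure D2:**
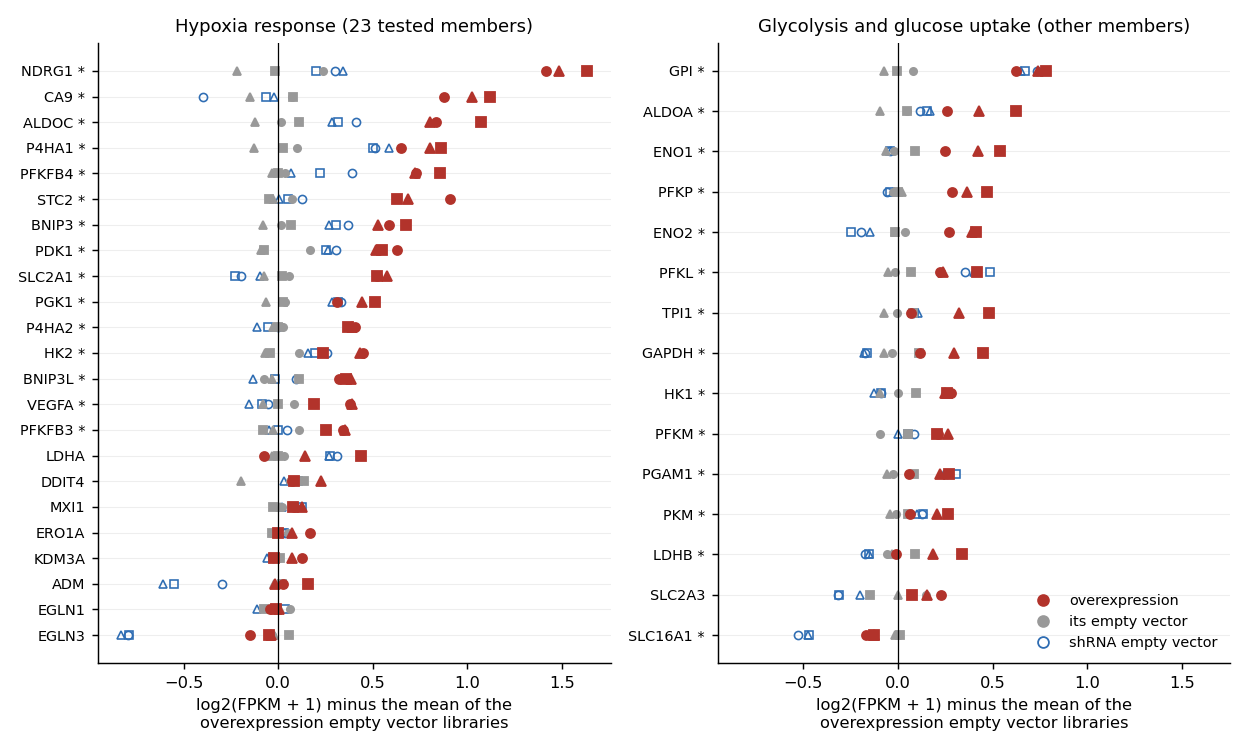
Each row is a gene of the hypoxia list (left) or another gene of the glycolysis list (right), and each point 1 library (circle, square and triangle: libraries 1, 2 and 3) as log2(FPKM + 1) minus the mean of the overexpression empty vector, with an asterisk at an adjusted p under 0.05. NDRG1 leads with a change of 1.51, red points lie right of all grey points in the 15 called hypoxia members, and for GPI and PGK1 the open points of the shRNA empty vector lie near the red ones.

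TXNIP, which binds thioredoxin and restrains glucose uptake, showed the opposite sign and was among the 12 largest falls. It stood at 9.75, 16.6 and 14.7 FPKM in the overexpression libraries against 34.3, 35.2 and 33.8 in their controls and 39.7 ± 1.37 (SD, n = 3) in the shRNA empty vector libraries. Overexpression library 1 was the lowest, and all 3 lay far below every control of either kind (log2 change -1.30, SE 0.109, adjusted p = 5.33e-08, and -1.50 against the shRNA empty vector). ARRDC4, a related arrestin-domain gene, stood at 1.42, 1.88 and 1.77 FPKM against 2.81, 2.58 and 2.71 (-0.46, adjusted p = 4.28e-05). Of the 7 tested members of this list 3 fell and 0 rose, and against the shRNA empty vector 2 fell and 3 rose. The third that fell, MLXIP, which encodes the factor MondoA that drives TXNIP, was at -0.14 and lost its call without any one of 5 of the 6 libraries (all but overexpression library 1). It stood at 12.3, 10.6 and 10.8 FPKM against 12.4, 12.5 and 12.5, and was higher than in the shRNA empty vector (0.23).

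Other subunits of the respiratory chain changed little, and the count of their rises depended on single libraries. Of 29 accessory complex I subunits other than NDUFS6, 7 rose and 0 fell (median 0.16). The median exon lengths of this list (1889 bases) and of the complexes II to V list below (2615 bases) lay in the shortest bin (207 to 3012 bases). In that bin 26.6% of genes rose and 4.24% fell (median 0.13). Of 7 core subunits 2 rose and 1 fell, and of 39 nuclear subunits of complexes II to V 19 rose and 0 fell (median 0.21). Without overexpression library 2 the rises numbered 0, 0 and 3, without library 3 they were 3, 0 and 10, and without library 1 they were 19, 5 and 35. They were 3, 0 and 8 without empty vector library 1, and 1, 0 and 5 without empty vector library 3. In a fit of only the 6 libraries compared they were 0, 0 and 1. With overexpression library 1 alone there were 0 rises in all 3 lists. Against the shRNA empty vector there were 7 rises and 1 fall, 2 rises and 1 fall, and 12 rises and 0 falls, and where the fixed sum left out mitochondrially encoded genes the last list had 9 rises and 1 fall. UQCRC1, a core subunit of complex III, stood at 12.1, 15.1 and 14.1 FPKM against 10.5, 10.5 and 9.70 (0.38, adjusted p = 0.000259). It did not pass against the shRNA empty vector (0.13, adjusted p = 0.107) or with library 1 alone (0.21, adjusted p = 0.101). NDUFA2 stood at 14.6, 18.8 and 17.3 FPKM against 13.4, 14.9 and 12.3 (0.30, adjusted p = 0.0175), so library 1 lay within the control range. The call was lost without overexpression library 2 (0.22, adjusted p = 0.116), without overexpression library 3 (0.28, adjusted p = 0.058) and without empty vector library 3 (0.24, adjusted p = 0.0969), and NDUFA2 did not pass against the shRNA empty vector (0.21, adjusted p = 0.0778). NDUFS1, the largest core subunit, fell by 0.18 (10.5, 9.07 and 9.67 against 11.2, 10.9 and 11.3 FPKM) and was lower against both controls. The call was lost without overexpression library 2 (-0.13, adjusted p = 0.058) and after adjustment for exon length (-0.01, adjusted p = 0.787). Among the 13 mitochondrially encoded subunits 3 rose and 1 fell (median -0.04), but 0 rose and 11 fell against the shRNA empty vector (median -0.32). Where the fixed sum left these genes out, 3 rose and 6 fell, and in the fit of only the 6 libraries 0 rose and 0 fell. MT-CYB was at 0.25 against its own control and -0.39 against the shRNA empty vector, in which all 13 stood higher than in the overexpression empty vector. MT-ND5 stood at 1366, 985 and 1183 FPKM against 1567, 1372 and 1555, and was lower against both controls (-0.36 and -0.70).

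Cytosolic ribosomal proteins gave the highest count of rises of the 52 lists, but libraries differed. Of 71 members, 68 rose and 0 fell (median 0.31), but the medians in overexpression libraries 1, 2 and 3 were 0.08, 0.52 and 0.33. Without library 2, 30 rose, without empty vector library 3, 37 rose, and with overexpression library 1 alone, or in a fit of only the 6 libraries, 0 rose. After each library was adjusted for its trend with exon length, 69 rose. Rises against the shRNA empty vector numbered 35, with 0 falls. RPL13A stood at 419, 565 and 482 FPKM against 339, 384 and 327 (0.47, adjusted p = 0.0003). Against the shRNA empty vector it did not pass (-0.11, adjusted p = 0.301). RPL26 rose against both controls (0.42 and 0.28). Of 77 mitochondrial ribosomal proteins, 23 rose and 3 fell (median 0.16), with 10 rises without library 2, 14 without empty vector library 3, 15 without library 3 and 46 without library 1. With overexpression library 1 alone 1 rose and 2 fell (median 0.0050), and against the shRNA empty vector 25 rose and 2 fell. The median exon length of the mitochondrial ribosomal list, 2539 bases, lay in the shortest bin, where 26.6% of genes rose and 4.24% fell. MRPS27 stood at 16.1, 17.4 and 16.8 FPKM against 13.1, 14.3 and 13.6 and rose against both controls (0.27 and 0.38).

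**Figure D3:**
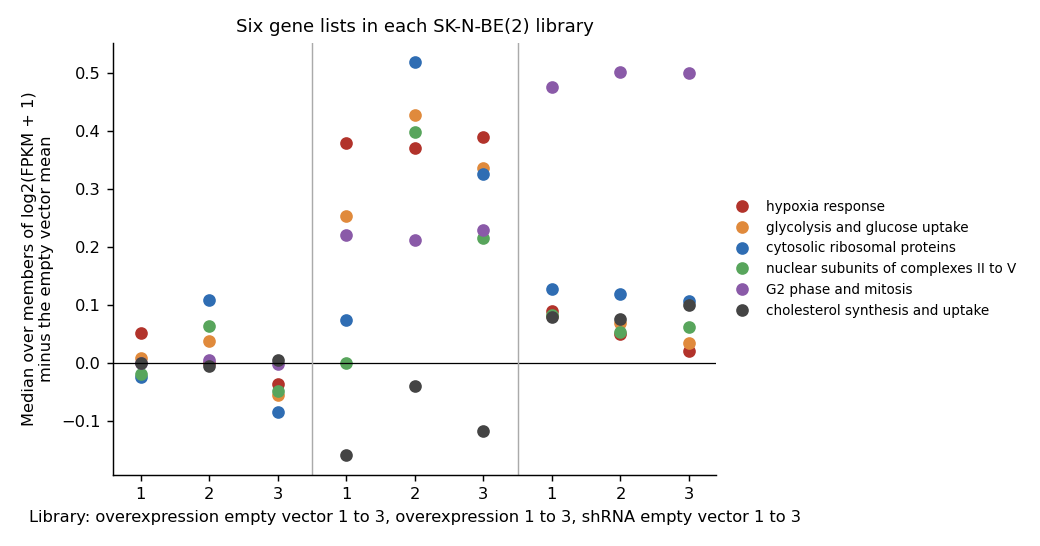
Median over the tested members of 6 gene lists, as log2(FPKM + 1) minus the mean of the overexpression empty vector, in the 9 SK-N-BE(2) libraries of the overexpression arm and the 2 empty vector arms. The hypoxia list sits at 0.37 to 0.39 in all 3 overexpression libraries, cytosolic ribosomal proteins range from 0.08 to 0.52, and the mitosis list is higher still in the shRNA empty vector.

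The 2 controls disagreed on the cell cycle. Of 37 genes of G2 phase and mitosis 24 rose and 1 fell against the overexpression empty vector (median 0.22), while 1 rose and 26 fell against the shRNA empty vector (median -0.26). All 37 were lower in the overexpression empty vector than in the shRNA empty vector. CCNB1, the mitotic cyclin, stood at 59.3, 68.6 and 63.6 FPKM against 42.6, 43.6 and 43.2, with 60.2 FPKM in the shRNA empty vector (0.55 and 0.08). CENPA, the histone of the centromere, stood at 21.9, 24.8 and 21.9 FPKM against 14.7, 17 and 14.9, with 27.6 FPKM in the shRNA empty vector (0.53 and -0.26). CENPA thus lay between the 2 controls, and CCNB1 overlapped the upper one. Of 33 genes of DNA replication and S phase 4 rose and 11 fell (median -0.07), with 2 rises and 14 falls against the shRNA empty vector and 17 falls where the fixed sum left out mitochondrially encoded genes. MCM6, a subunit of the replicative helicase, stood at 29.6, 30.4 and 28.1 FPKM against 36.8, 38 and 36.6 (-0.33, adjusted p = 4.08e-06), but was above the shRNA empty vector (0.28). MCM4 was lower against both (-0.27 and -0.21).

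MYCN and several adrenergic factors were higher. MYCN stood at 1166, 1282 and 1228 FPKM against 898, 969 and 904, with no overlap (1.33-fold, log2 change 0.41, SE 0.116, adjusted p = 0.0109). Against the shRNA empty vector the change was 0.15 (adjusted p = 0.298), and without overexpression library 2 the call was lost (0.37, adjusted p = 0.0516), as with a pseudocount of 0.1 (adjusted p = 0.0615). Of 23 adrenergic transcription factors and related genes 12 rose and 4 fell (median 0.18), with 7 rises and 2 falls without overexpression library 2 and with 5 rises and 1 fall against both controls. With overexpression library 1 alone 4 rose and 1 fell (median 0.09), and against the shRNA empty vector 8 rose and 4 fell (median 0.0089). DLK1, a membrane ligand of the Notch family, stood at 32.9, 37.5 and 36.7 FPKM against 18.8, 21.6 and 19 (0.82, adjusted p = 2.09e-08, and 0.55 against the shRNA empty vector). HAND1, a transcription factor of the sympathetic lineage, rose against both (0.44 and 0.30). EYA1 rose by 0.50 but did not pass against the shRNA empty vector (-0.12, adjusted p = 0.116), and SATB1 fell by 0.35 but did not pass against that control either (-0.12, adjusted p = 0.103). TH, the first enzyme of catecholamine synthesis, stood at 75.4, 91.2 and 84.5 FPKM against 76.7, 87.7 and 80.02 (0.04, adjusted p = 0.733; 1.495 against the shRNA empty vector), and DBH, a later enzyme, fell from 53.3, 51.6 and 48.6 to 37.4, 39.3 and 38.1 FPKM (-0.41). DBH was nevertheless far above the shRNA empty vector (13.8 FPKM, 1.41).

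Mesenchymal genes went both ways, with 4 of 18 tested members higher and 6 lower (12 of 30 did not pass the filter). These counts were not far above the shares of all genes, of which 14.8% rose and 20.4% fell. The counts against the shRNA empty vector were the same, but only 1 member rose and 2 fell against both controls. CD44 stood at 5.87, 5.88 and 6.09 FPKM against 3.11, 3.24 and 2.60 (0.81, adjusted p = 6.24e-06), and NT5E at 12.7, 12.5 and 12.3 against 6.40, 6.88 and 6.72 (0.82, adjusted p = 2.72e-05). Both are surface proteins of mesenchymal cells, and both were lower than in the shRNA empty vector (-0.25 and -2.07). FN1, the matrix protein fibronectin, fell from 12.8, 11.1 and 13.2 to 8.87, 6.11 and 7.36 FPKM (-0.67, adjusted p = 2e-05), level with the shRNA empty vector (7.24 FPKM). Among the matrix genes, COL3A1 fell 2.02-fold, to 5.17, 5.10 and 5.47 FPKM against 10.1, 11 and 10.7 (-0.89, adjusted p = 9.38e-11), and lower still relative to the shRNA empty vector (-1.47). COL6A1 and COL6A2, which form another collagen together, rose against both (0.46 and 0.50, then 0.34 and 0.26). The summed FPKM of the 13 fibroblast and stroma markers was 221 to 243 in the overexpression libraries and 192 to 200.3 in their controls, with COL1A2, FAP and POSTN below 0.1 FPKM, and its part in these results was not tested.

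Several genes of secreted peptides and neuronal structure rose, and others fell. Of 12 tested granule proteins and neuropeptides 4 rose, all of them against both controls, and 2 fell, while 7 rose and 3 fell against the shRNA empty vector. NPY stood at 3.49, 4.51 and 4.61 FPKM against 1.58, 1.77 and 1.42 (2.64-fold, adjusted p = 4.34e-06, with a log2 change of 1.97 against the shRNA empty vector), and VIP at 1.65, 1.54 and 1.46 against 0.115, 0.313 and 0.134 (1.11 and 0.56). The other risers were NMU (0.60 and 0.31) and SCG5 (0.60 and 1.15). The more abundant granule protein CHGA was lower, at 291, 350 and 302 FPKM against 368, 406 and 352. Summed over the 12 tested members, FPKM was 721, 835 and 749 against 840, 899 and 819. The same sum was 547, 533 and 535 in the shRNA empty vector libraries. Of 20 synaptic vesicle and release genes 3 rose and 5 fell, shares near those of all genes (14.8% and 20.4%), and 7 rose and 3 fell against the shRNA empty vector. SYT4, a vesicle protein and one of the 3, stood at 5.93, 5.17 and 4.78 FPKM against 2.28, 1.83 and 2.01 (1.05, adjusted p = 4.88e-10, and 0.27). The intermediate filament NES stood at 54, 60.0 and 60.5 FPKM against 28.9, 30.0 and 28.9, and the growth cone protein GAP43 at 62.8, 67.2 and 62.7 against 31.8, 33.7 and 30.5. The log2 changes were 0.97 and 0.98, and the groups were far apart. The shRNA empty vector means were 56.5 and 59.1 FPKM, against which neither passed (0.04 and 0.12, adjusted p = 0.52 and 0.168). MAPT, which encodes tau, rose against both (0.55 and 0.45). In all, 9 of 28 neuronal cytoskeleton genes rose and 11 fell (median -0.03), while against the shRNA empty vector 19 rose and 2 fell (median 0.29). Of 29 axon guidance ligands and receptors 4 rose and 13 fell, and against the shRNA empty vector 16 rose and 3 fell. The median exon length of this list, 9733 bases, lay in the longest bin, where 6.18% of genes rose and 42.9% fell.

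By count, cholesterol synthesis and uptake was the metabolic list with most falls. Of 23 tested members 9 fell and 2 rose (median -0.10, against 20.4% of all genes that fell), with 10 falls and 1 rise against the shRNA empty vector, 7 falls and 0 rises against both controls and 13 falls where the fixed sum left out mitochondrially encoded genes. MSMO1, an enzyme of the pathway that removes methyl groups from sterols, stood at 8.96, 11 and 9.04 FPKM against 13.2, 14.7 and 13.6 (-0.48, adjusted p = 6.15e-05). The libraries did not overlap their controls, and MSMO1 was lower against the shRNA empty vector too (-0.53). SC5D and STARD4 had larger falls against their own control (-0.75 and -0.72) but stood at 0.26 and -0.12 against the shRNA empty vector. Amino acid transporters, also a metabolic list, had fewer falls (6 of 15, with 0 rises) but a lower median (-0.18). Against the shRNA empty vector 5 of them fell and 1 rose.

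Stress response genes went both ways against their own control, and the counts were different against the other. Of all genes 14.8% rose and 20.4% fell against their own control. Against the shRNA empty vector the shares were 23.5% and 22.6%. The ATF4 and unfolded protein response counts against their own control were near or below the shares of all genes. Of 33 tested ATF4 and integrated stress response genes 5 rose and 5 fell (median -0.03; 13 fell where the fixed sum left out mitochondrially encoded genes), and of 23 unfolded protein response genes 1 rose and 4 fell (median -0.06). Against the shRNA empty vector 12 rose and 4 fell in the first list, and 6 rose and 1 fell in the second. ATF4, the transcription factor of this response, stood at 122, 145 and 129 FPKM against 107, 118 and 105 (0.26, adjusted p = 0.00671, lost without overexpression library 2 at adjusted p = 0.0548), and its target DDIT3 at 10.4, 10.4 and 9.62 against 6.86, 7.02 and 6.94 (0.48, adjusted p = 0.0102). Both were higher than in the shRNA empty vector (0.70 and 1.37). The antioxidant enzyme HMOX1 did not pass the test, at 3.27, 3.97 and 4.08 FPKM against 3.72, 4.14 and 3.16 (0.03, adjusted p = 0.895), but was higher than in the shRNA empty vector (1.25). SLC7A11, the cystine carrier, stood at 2.93, 1.62 and 2.08 FPKM against 3.71, 3.47 and 4.08 (-0.58, adjusted p = 0.00347), and at 2.16 in the shRNA empty vector. Of 22 tested p53 targets 3 rose and 9 fell (median -0.10), with 4 falls without overexpression library 2 or without empty vector library 3, and against the shRNA empty vector 6 rose and 2 fell (median 0.01). CCNG1 rose (0.56 and 0.20 against the 2 controls) and SESN1 fell (-0.44 and -0.37). The cell cycle inhibitor CDKN1A was low, at 1.22, 1.18 and 1.09 FPKM against 1.93, 1.56 and 1.81 (-0.35, adjusted p = 0.0405), a call that was lost without overexpression library 2 or 3 or empty vector library 1 or 3 (adjusted p = 0.0952 to 0.126). Of 23 apoptosis regulators 9 fell and 3 rose, and against the shRNA empty vector 7 fell and 6 rose. APAF1, which builds the caspase-activating apoptosome, stood at 5.43, 3.81 and 4.28 FPKM against 6.58, 6.83 and 7.32, and BCL2L11, a trigger of mitochondrial cell death, at 9.996, 9.18 and 9.32 against 12.1, 12.1 and 12.7. These 2 were lower against both controls (-0.53 and -0.39 for APAF1, -0.34 and -0.34 for BCL2L11), whereas BMF, of the same family as BCL2L11, was lower against 1 (-0.52) and higher against the other (0.88).

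**Figure D4:**
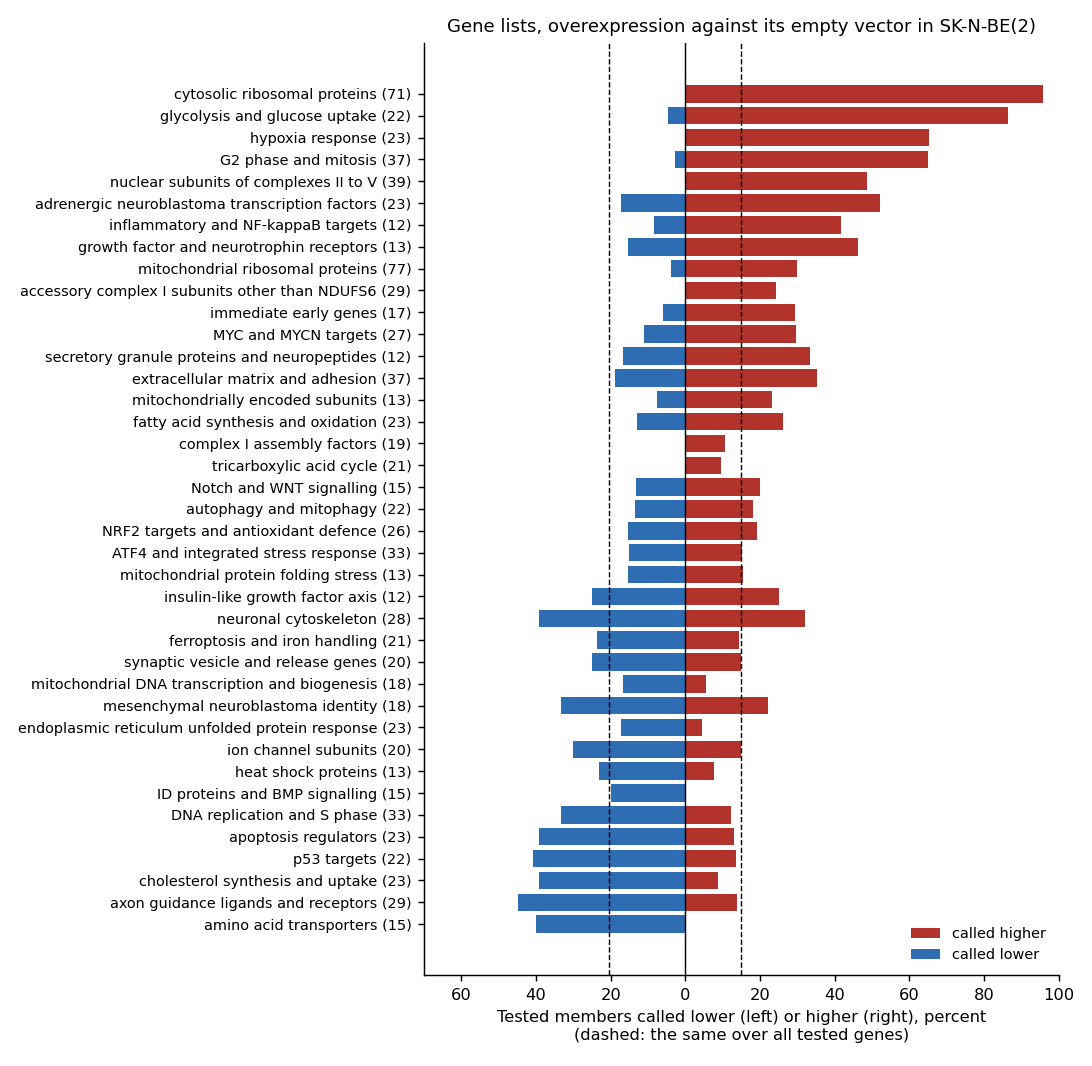
Percent of the tested members (number in brackets) called higher (red, right) or lower (blue, left) in overexpression against its empty vector, for the lists with at least 12 tested members, with dashed lines at the shares over all genes, 14.8% and 20.4%. Cytosolic ribosomal proteins, glycolysis, the hypoxia response and mitosis have the longest red bars. Amino acid transporters and axon guidance genes have blue bars of 6 of 15 and 13 of 29 members. Against the shRNA empty vector, which is not plotted, 5 and 3 members fell. In the bin of longest exon lengths, which holds the median of the axon guidance list, 42.9% of genes were called lower. The share was 29.5% in the bin that holds the median of the amino acid transporters.

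The largest single change was that of S100A6 (chromosome 1), a small calcium-binding protein. It stood at 12.5, 16.5 and 11.5 FPKM in the overexpression libraries against 0.622, 0.639 and 0.664 in their controls and 1.10 ± 0.412 (SD, n = 3) in the shRNA empty vector libraries. All 3 libraries were far above every control, 21.1-fold on average (log2 change 3.13, SE 0.188, adjusted p = 6.49e-10, and 2.79 against the shRNA empty vector). Its neighbour in the family S100A10, chosen after its values were seen, stood at 15.3, 21.9 and 16.9 FPKM against 9.10, 9.13 and 8.54, with 2.37 in the shRNA empty vector (0.93 and 2.5), a call lost with a pseudocount of 0.1 (adjusted p = 0.0536). LAMP5, a lysosome-associated membrane protein of neurons, stood at 17.7, 20.6 and 21.1 FPKM against 3.66, 4.08 and 3.71 (2.11, adjusted p = 7.01e-13, and 1.20). C12orf29 stood at 17.7, 16.7 and 17.5 FPKM against 5.66, 5.64 and 6.35 (1.41 and 0.91), and GLMP, a lysosomal membrane protein, at 2.70, 2.81 and 2.57 against 0.290, 0.606 and 0.372 (1.38 and 0.62). Each of these 5 genes was higher against both controls, and without overlap. TWIST2, a transcription factor of mesenchymal cells, stood at 1.98, 2.73 and 1.98 FPKM, while its controls were at 0.0725 FPKM in library 1 and listed at 0 in the other two. TRAC, the constant segment of the T cell receptor alpha chain, stood at 2.26, 2.41 and 2.47 FPKM and was listed at 0 in all 3 controls, but it was present in the shRNA empty vector (0.635 FPKM on average), and immune markers such as PTPRC and CD3E were below 0.1 FPKM. Among genes higher against both controls, COTL1, an actin-binding protein, stood at 14.9, 18.6 and 16.8 FPKM against 7.09, 7.73 and 7.40 (1.08 and 1.39), and ARMCX1, a mitochondrial outer membrane protein, at 10.3, 12.7 and 11.3 against 5.24, 5.27 and 4.23 (1.07 and 1.20). HGF, the ligand of the MET receptor and also chosen after its values were seen, stood at 8.31, 6.92 and 7.18 FPKM against 3.83, 3.02 and 3.31 (0.95 and 0.92). The imprinted transcript H19 stood at 628, 744 and 694 FPKM against 449, 448 and 390 (0.68 and 0.63), and IGF2 beside it, 73.7% of whose exons are shared with another gene, rose by 0.80 and 1.07.

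Of the 12 largest falls, 5 were of protein-coding genes (TXNIP, DLX1, HIPK2, MBNL3 and ZBED6), and most others were of small RNAs or pseudogenes. DLX1, a homeobox gene, stood at 2.83, 2.35 and 2.79 FPKM against 8.21, 7.26 and 6.77 (-1.20, adjusted p = 2.09e-08), yet it was higher than in the shRNA empty vector (1.40 FPKM, 0.61), as was its neighbour DLX2 (-0.97 and 0.68). HIPK2, a nuclear kinase, stood at 7.43, 0.294 and 5.16 FPKM against 10.5, 8.07 and 10.7, and MBNL3, a splicing regulator, at 5.36, 3.45 and 0.356 against 7.43, 6.47 and 8.39. In each of them 1 library was near 0, library 2 for HIPK2 and library 3 for MBNL3, and the calls (adjusted p = 0.0148 and 0.0138) were lost without empty vector library 3 (adjusted p = 0.0523 and 0.052), and for MBNL3 without overexpression library 3 (-0.66, adjusted p = 0.0835). RN7SL2, a small structural RNA whose values depend on the library preparation, had 32.1, 3.51 and 1.26 FPKM against 36.8, 33 and 39.8, so library 1 stood near the controls, and its call (-2.43, adjusted p = 0.0341) was lost without any one of the 6 libraries but overexpression library 1. ZBED6, 96.0% of whose exons lie within another gene, cannot be separated from it. The pseudogene RAB11FIP1P1 stood at 1.85, 0.951 and 1.18 FPKM against 6.31, 3.06 and 3.76 (-1.18 and -1.39). IGFBP3, a carrier of insulin-like growth factors, stood at 10.1, 12.1 and 13.2 FPKM against 21.2, 20.4 and 19.7 (-0.75), but at 1.04 in the shRNA empty vector (2.64), and its relative IGFBP4 rose (0.99) to the level of that control (0.10).

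**Figure D5:**
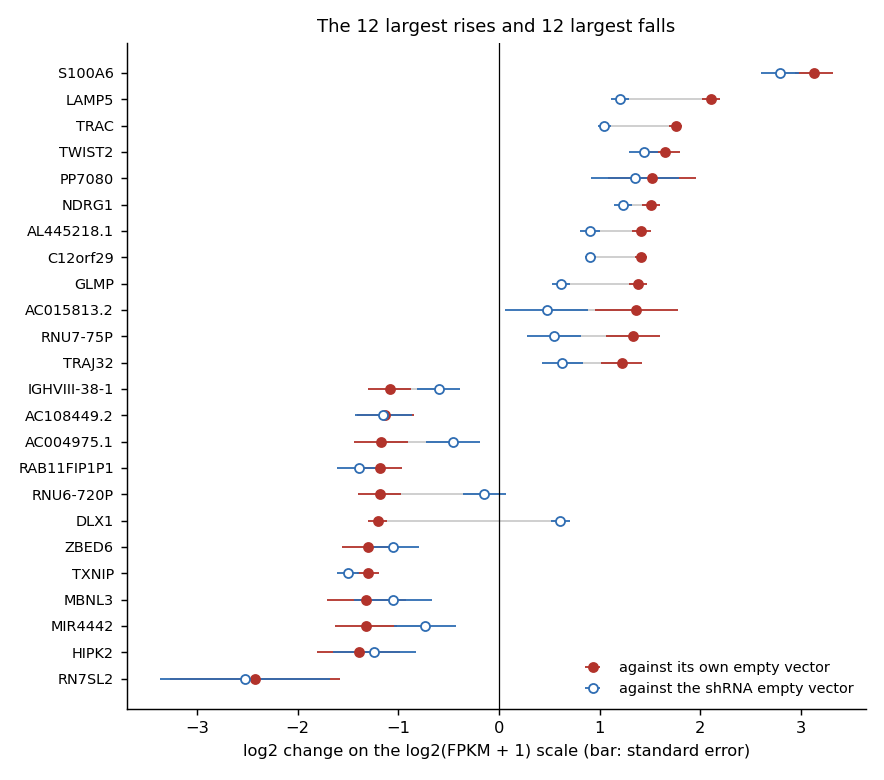
log2 changes with standard errors of the 12 largest rises and 12 largest falls, against their own empty vector (filled red) and against the shRNA empty vector (open blue). S100A6 is at 3.13 and 2.79 and TXNIP at -1.30 and -1.50, while DLX1 is at -1.20 and 0.61. The same overexpression libraries enter both comparisons.

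Knockdown of NDUFS6 in the same line, measured against the shRNA empty vector, did not give a mirror image. It took NDUFS6 from 11.2 to 1.33 FPKM (log2 change -2.38) and changed 7901 genes (60.9%), 28.8% upward and 32.1% downward. Of the 4564 genes called with overexpression, 1466 went the other way with knockdown (32.1% of those calls and 18.6% of the knockdown calls), 690 higher with overexpression (5.32% of all genes) and 776 lower (5.98%). Another 1473 went the same way (32.3% and 18.6%), 537 up (4.14%) and 936 down (7.22%). Without overexpression library 2 the genes called oppositely numbered 941. TXNIP fell in both (-1.30 and -2.24 with knockdown), and of the hypoxia list 17 members rose and 1 fell with knockdown (median 0.43), SLC2A1 (1.07) and STC2 (2.23) among the risers, while NDRG1 was at -0.12 and CA9 at 0.17. The stress lists rose with knockdown at 31 of 33 ATF4 response genes and 22 of 23 unfolded protein response genes. Among genes called in opposite directions, COL3A1 fell with overexpression and rose with knockdown (-0.89 and 1.53), and so did GPR50, an orphan receptor (-0.82 and 1.19). The surface protein genes ITM2A (0.91 and -2.34) and GFRA3, a receptor for artemin (0.90 and -1.15), rose with overexpression and fell with knockdown, as did NT5E (0.82 and -4.64). For ITM2A and NT5E the overexpression libraries nonetheless stood below the shRNA empty vector. ITM2A was at 5.00, 5.02 and 4.92 FPKM against 13.8 FPKM on average, and GFRA3 also had a negative change against that control (-0.23).

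The change differed from that of SH-SY5Y overexpression at 5124 genes (39.5%; 18.1% higher and 21.4% lower in SK-N-BE(2), by an interaction term in limma). In SH-SY5Y itself 4385 genes were called (33.8%), 17.5% higher and 16.4% lower. In the hypoxia list the difference passed for 19 of 23 members, all higher in SK-N-BE(2) (median difference 0.68), and in SH-SY5Y 16 members fell and 1 rose. NDRG1 was at 1.51 in SK-N-BE(2) and -0.60 in SH-SY5Y (difference 2.11, adjusted p = 1.5e-10), PFKFB4 at 0.77 and -0.71, and BNIP3 at 0.60 and -0.48. In the glycolysis list 19 of 22 differences were higher and 1 lower, and of the cytosolic ribosomal proteins 51 of 71 were higher, with 0 members called in SH-SY5Y. In DNA replication and S phase the difference was lower for 24 of 33 genes and higher for 2, and in SH-SY5Y 24 of the 33 rose and 1 fell. TXNIP was at -1.30 and -0.14 (difference -1.17, adjusted p = 7.73e-06). NDUFS6 was raised far less in SK-N-BE(2) than in SH-SY5Y, as given above, so the line and the level of NDUFS6 cannot be told apart in this comparison.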

How the data were processed

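The authors deposited 1 table of FPKM values per gene for 24 libraries. Per the labels' protocols, total RNA was taken up in TRIzol and TruSeq libraries that keep the strand were made from it and sequenced on a NovaSeq, and per the submitters' processing notes FastQC 0.11.2, STAR and StringTie 1.3.1c were run with hg38. Read numbers are unknown, so depth is unknown and precision rests on the spread between libraries alone. That spread was estimated over all 8 groups of both lines together, not from the 6 libraries compared. From the deposited FPKM, genes with at least 1 FPKM in 3 of the 6 libraries compared (12967) were taken as log2(FPKM + 1), which understates changes of low genes. R 4.3.3 with limma 3.58.1 fitted all 24 libraries in 8 groups (16 residual degrees of freedom, trend, robust), with Benjamini-Hochberg adjustment over all tested genes and two-sided calls at 0.05. The fit was also run on simulated data, with noise drawn independently for each gene and library. Those data hold no shift with exon length shared by the genes of a library, so they cannot show how calls behave under the shift seen here. Exon lengths came from GENCODE release 29 (99.6% of tested genes), and promoters from RefSeq.

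The comparison, the 52 gene lists and the rules were chosen with earlier results of these data known. Lists are described by counts, with no test of a list. Named were NDUFS6, the 12 largest rises and falls without overlap, up to 8 per direction called against both controls, up to 4 members per list by adjusted p, 6 per direction for the difference between lines and for opposition to knockdown, and MYCN, TH, CDKN1A, ATF4, DDIT3 and HMOX1. A few genes that meet this rule are not reported here. Members of the hypoxia and glycolysis lists beyond that rule, S100A10, HGF and CHGA were named after their values were seen. Alternatives covered the pseudocount, filters, scaling, the libraries fitted, a replicate block and leaving out each library. Library 1 alone and an adjustment for exon length (lowess per library, span 0.3) were added after seeing the data.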

Additional observations from a re-analysis of the deposited data

Results flagged for a closer look

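The change with overexpression differed between SK-N-BE(2) and SH-SY5Y, by the interaction term of limma at an adjusted p under 0.05, for 5124 genes, among them all the genes that follow, each given as the SK-N-BE(2) change minus the SH-SY5Y change on the log2 scale. NDUFS6 itself had a difference of -3.73. Genes that rose in SK-N-BE(2) and not in SH-SY5Y were S100A6 (3.58), LAMP5 (2.33) and NDRG1 (2.11), of which LAMP5 and NDRG1 fell in SH-SY5Y. IGFBP3 (-2.19), CLK1, a kinase of splicing factors (-1.61), and DRGX, a homeobox gene (-1.59), fell in SK-N-BE(2) and rose in SH-SY5Y. PTX3, a secreted pattern recognition protein (-1.72), and the long noncoding RNA AC005828.4 (-1.99) rose in SH-SY5Y and did not pass in SK-N-BE(2). MBNL3 (-1.97) fell in SK-N-BE(2), a call that was lost without the 1 overexpression library near 0, and the difference between lines without that library was not tested. The structural RNAs RNA5-8SN1 (2.56), RNA5-8SN4 (2.47) and RN7SK (2.02) differed as well, although neither line's own change passed, and near-identical copies of such RNAs share reads.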

How the results depend on the processing

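Counts of calls depended on which libraries entered the fit. Fitting only the 6 libraries gave 604 rises and 582 falls, and the 12 SK-N-BE(2) libraries 1264 and 1646. With overexpression library 1 alone there were 533 rises, 506 falls, 11 falls of at least 2-fold, 227 rises and 178 falls against both controls, and 397 genes opposite to knockdown. A replicate block gave 999 rises and 1201 falls. The replicate numbers pair the samples only by name: deviations of same-numbered libraries correlated at 0.16, 0.44 and -0.08, and overexpression libraries 1 and 3 correlated best with another number (0.33 with empty vector library 3 and 0.05 with library 2). Leaving out 1 library at a time gave 1189 to 2622 rises and 1501 to 3325 falls. The same gave 25 to 37 rises and 12 to 58 falls of at least 2-fold. Against both controls it gave 532 to 1527 rises and 611 to 2052 falls. It gave 4482 to 6036 genes that differed between lines, 941 to 1929 opposite to knockdown, and NDUFS6 changes of 0.33 to 0.49. The NDUFS6 call was also lost in the fit of only the 6 libraries (0.39, adjusted p = 0.0511) and with library 1 alone (0.21, adjusted p = 0.498). With a mean of at least 5 FPKM there were 1715 falls, 9 rises and 9 falls of at least 2-fold, 866 falls against both controls and 3198 genes that differed between lines. A pseudocount of 0.1 gave 98 rises and 94 falls of at least 2-fold. Falls of at least 2-fold numbered 8 in the fit of only the 6 libraries and 26 with values scaled to a fixed sum, with or without mitochondrially encoded genes, and without the latter 547 genes rose against both controls. The shRNA empty vector as control gave 3048 rises, and 91 rises and 50 falls of at least 2-fold. It turned the sign of named genes, to negative for MT-CYB (-0.39), LDHA (-0.12), RPL13A (-0.11), CENPA (-0.26), EYA1 (-0.12), CD44 (-0.25), NT5E (-2.07), ITM2A (-1.30), GFRA3 (-0.23) and RN7SK (-0.76). It turned to positive EGLN1 (0.0143), EGLN3 (0.73), SLC16A1 (0.35), MLXIP (0.23), MCM6 (0.28), DBH (1.41), FN1 (0.0235), SC5D (0.26), SLC7A11 (0.00288), CDKN1A (0.11), BMF (0.88), IGFBP3 (2.64), DLX1 (0.61), DLX2 (0.68), CLK1 (0.38) and DRGX (0.81). Other reversals were of small changes. With the fixed sum without mitochondrially encoded genes ADM was at -0.0204, KDM3A at -0.00803, TH at -0.0440 and HMOX1 at -0.0315, and with the other fixed sum TH was at -0.0185 and HMOX1 at -0.0113. After adjustment for exon length EGLN1 was at 0.0580, ADM at -0.0253, MLXIP at 0.0378, TH at -0.0206 and HMOX1 at -0.0621. With library 1 alone LDHA was at -0.0767, TH at -0.11 and HMOX1 at -0.12, and with median-of-ratios scaling EGLN1 was at 0.0154. Leaving out 1 library at a time gave -0.0537 to 0.0154 for EGLN1, -0.0275 to 0.11 for TH, -0.0490 to 0.11 for HMOX1 and -0.19 to 0.0342 for PTX3. The cause was not tested in any of these. Read depth is unknown, so no detection limit can be given.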
